A study of Mus musculus with 14 samples.

Results

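The 6 genes described here, of the mouse major urinary protein (Mup) family, are Mup3, Mup4, Mup5, Mup6, Mup20 and Mup21. They were chosen by rule, on position and sequence, as the Mup genes outside the central block of near-identical copies, where a read can be placed with more certainty. They are 6 of the 21 Mup genes among the 54446 genes of the table, and all 6 passed the filter on low values (10 or more in 6 or more libraries). The study sequenced total liver RNA from C57BL/6 mice at 5 weeks of age, and its title names a liver-specific knockout of Mettl3, the catalytic subunit of the enzyme that places the m6A mark on mRNA. The 6 controls carried a floxed Mettl3 gene without Cre. The 8 knockouts carried the floxed gene and Alb-Cre, a recombinase under the albumin promoter. It acts in hepatocytes and leaves Mettl3 in liver cells where that promoter was never active. The question was how the RNA of these genes differs between the 2 groups. A value below is an estimated count divided by a size factor of the library, as deposited. In whole liver, fewer hepatocytes and less RNA per hepatocyte cannot be told apart.

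Major urinary proteins are small secreted lipocalins, barrel-shaped carriers of hydrophobic ligands. The liver makes most of them, and they pass through the kidney into urine, where they bind and slowly release volatile pheromones. Mup RNA in liver is higher in males than in females and depends on the pulsed growth hormone of males, which acts through the transcription factor STAT5B. Mup20 encodes darcin, a male scent protein that attracts females. Mup4 and Mup5 are known for expression in nasal and salivary tissue respectively, besides low levels in liver.

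The 6 genes lie at the ends of the family's block on chromosome 4, and all are annotated as protein-coding (GENCODE M21, build GRCm38). Mup4 (ENSMUSG00000041333) is at chr4:59956804-59960710 on the minus strand. Mup6 (ENSMUSG00000078689), at chr4:59964294-60007274, is on the plus strand. These 2 form the first end. Mup5 (ENSMUSG00000058523, chr4:61831319-61835233), Mup20 (ENSMUSG00000078672, chr4:62050234-62054158), Mup3 (ENSMUSG00000066154, chr4:62083476-62087342) and Mup21 (ENSMUSG00000066153, chr4:62147932-62150863) follow the block on the minus strand.

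How far a gene's own reads can be told from those of its relatives is visible in the coding sequence. The 60 coding bases below are the stretch where the 6 genes differ most from each other without a gap in the alignment. They run over the junction of exons 2 and 3 in all 7 genes shown, and start at coding base 212 in Mup5 and Mup9. Capitals mark bases unlike the majority of the 16 Mup genes of the central block, and Mup9, which has none, stands for that block.
Mup9: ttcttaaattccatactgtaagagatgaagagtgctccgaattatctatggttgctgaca
Mup4: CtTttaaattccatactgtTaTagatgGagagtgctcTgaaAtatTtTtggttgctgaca
Mup6: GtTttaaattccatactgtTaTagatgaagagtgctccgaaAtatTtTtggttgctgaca
Mup5: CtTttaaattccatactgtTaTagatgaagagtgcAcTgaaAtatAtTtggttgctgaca
Mup20: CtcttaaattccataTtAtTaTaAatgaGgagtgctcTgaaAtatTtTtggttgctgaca
Mup3: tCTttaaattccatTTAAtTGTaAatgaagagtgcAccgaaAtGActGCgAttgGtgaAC
Mup21: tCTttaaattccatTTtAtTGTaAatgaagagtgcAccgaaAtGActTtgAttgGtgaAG
Mup3 had 20 such bases and Mup21 had 18, Mup20 had 11, Mup4 and Mup5 had 9 each, and Mup6 had 7. In the 16 genes of the central block the number was 0 to 2. Mup3 and Mup21 were the closest pair, with 94.8% identity over the coding sequence. Over the 15 pairs of the 6 genes, identity ran from 82.5% to 94.8%.

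Kallisto, the quantifier named in the submitters' processing notes, places reads by short words of the sequence. Words of 31 bases that occur in the transcripts of no other annotated gene made up 75.7% of the words of Mup6, 69.9% of Mup3, 66.2% of Mup21, 63.0% of Mup5 and 62.0% of Mup4. For Mup20 the share was 35.5%, because 51.2% of its words also occur in the unprocessed pseudogene Mup-ps19 (chr4:61957149-61959911, minus strand). For the 15 other Mup genes of the table the share was 0 to 29.8%. Among the 6, Mup20 alone shared most words with Mup-ps19, and its values are therefore given with those of the pseudogene below. How many words the other genes share with Mup-ps19 is not given here.

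RefSeq promoter windows (GRCm38.p6) were matched for 4 of the 6 genes, Mup4, Mup6, Mup3 and Mup21; Mup5 and Mup20 were not matched. They are shown because these 4 genes were each lower in the knockout in the results below. Each is the 250 bases before the start annotated in RefSeq, with capitals for the motifs found. These starts differ from those of the GENCODE genes given above. The window of Mup6 lies inside its GENCODE gene, and those of Mup4, Mup3 and Mup21 overlap the ends of theirs. The motifs searched, on both strands, were TATAAA for the core promoter element that positions the polymerase, TTCNNNGAA for STAT5, TTGCNNAA for C/EBP, GTTAAT for an HNF1 half-site and CAAAGT for an HNF4 half-site, whose matches do not overlap in these windows.
Mup4, chr4:59960668-59960917, minus strand: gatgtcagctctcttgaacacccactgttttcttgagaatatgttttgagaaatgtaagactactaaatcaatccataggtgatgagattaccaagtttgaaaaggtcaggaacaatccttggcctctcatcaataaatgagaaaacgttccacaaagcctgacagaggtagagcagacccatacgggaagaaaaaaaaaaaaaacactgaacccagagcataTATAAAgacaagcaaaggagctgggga
Mup6, chr4:60003231-60003480, plus strand: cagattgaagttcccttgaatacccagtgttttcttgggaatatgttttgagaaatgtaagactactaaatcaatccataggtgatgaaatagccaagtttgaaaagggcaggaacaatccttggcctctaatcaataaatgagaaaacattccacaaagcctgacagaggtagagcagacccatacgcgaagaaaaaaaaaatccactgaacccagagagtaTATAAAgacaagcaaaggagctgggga
Mup3, chr4:62087318-62087567, minus strand: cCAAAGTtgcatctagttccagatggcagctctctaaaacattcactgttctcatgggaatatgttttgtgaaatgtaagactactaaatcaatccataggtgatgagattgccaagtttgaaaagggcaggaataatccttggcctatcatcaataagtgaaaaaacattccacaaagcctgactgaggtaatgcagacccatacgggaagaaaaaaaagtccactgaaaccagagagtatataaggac
Mup21, chr4:62150842-62151091, minus strand: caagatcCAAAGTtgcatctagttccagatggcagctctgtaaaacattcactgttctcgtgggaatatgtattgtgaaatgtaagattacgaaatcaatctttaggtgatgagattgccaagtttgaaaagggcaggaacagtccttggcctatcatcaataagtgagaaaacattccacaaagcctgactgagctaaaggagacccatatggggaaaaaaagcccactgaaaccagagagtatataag
TATAAA stood 22 to 27 bases before the RefSeq start in Mup4 and Mup6, inside the GENCODE gene in both, and 12.3% of 32536 promoters of the same length hold it. Near the end of the windows of Mup3 and Mup21 stand the similar letters tatataag, which the exact search does not match. The lack of a mark there is therefore no sign that such an element is missing. CAAAGT occurred in Mup3 and Mup21, against 12.6% of promoters. The letters searched for STAT5, C/EBP and HNF1 were not in these 4 windows, against 7.04%, 9.57% and 6.47% of promoters. Mup4 and Mup6 were 91.6% identical over the window, and Mup3 and Mup21 92.3% over their overlap.

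The libraries held 11.1 M to 33.8 M estimated reads (M, megareads). The labels gave no sex, and the libraries formed 2 classes by sex-linked RNA. In controls 1 to 4 and knockouts 1 to 4 the Y-linked genes Ddx3y, Kdm5d, Uty and Eif2s3y summed to 1749 or more (Y-positive). Controls 5 and 6 and knockouts 5 to 8 showed Xist at 6565 or more (Xist-high). The Y-positive libraries were also deeper, at 24.3 M to 33.8 M estimated reads against 11.1 M to 19.3 M, so depth and class cannot be told apart. Knockouts 3, 6 and 7 stood away from the other knockouts, with scores of 61.5, 99.7 and 96.3 on the first principal component, where the others reached at most 27.6. Mitochondrial RNA took 7.85% and 7.91% of the values in knockouts 6 and 7 and 2.77% to 5.47% elsewhere. Mettl3 was 199 to 263 in controls and 76.9 to 122 in knockouts, without overlap. Of 10 hepatocyte markers 7 were lower in knockouts, against 11% of all genes (2 with quantile normalization, where 10.2% of all genes were). Fabp1 (-1.62, limma adjusted p = 0.000240), Serpina1a (-1.42, 0.00523) and Alb (-1.07, 0.00105) fell the most. The summed value of the 10 ranged over 1056410 to 1295520 among controls and 479477 to 959083 among knockouts. Of 17 markers of other cells tested, 2 were higher and none was lower, against 11.5% higher over all genes, so this count was near the background. They were Sox9 and Epcam, both known from bile ducts, while Krt19, the other bile duct marker listed, was at 0.26 (limma adjusted p = 0.728). With libraries scaled to equal sums outside ribosomal RNA 4 were higher, against 33.3% of all genes, and with quantile normalization 1 was. No marker was at 0 in every library of a group. The summed value of all 20 such markers ranged over 12532 to 16889 among controls and 9689 to 17963 among knockouts, and that of the 4 pancreatic acinar markers over 24.5 to 201 and 28.5 to 5075; of these, Cela2a was at 1.95 (limma adjusted p = 0.0660). The labels do not say that each library came from a separate animal, so p-values measure only the spread between these samples. The part of these markers and of depth in the Mup results was not tested.

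Of the 6 genes, 5 were lower in the knockout livers and none was higher, with limma over 23554 genes and a Benjamini-Hochberg adjusted p of at most 0.05. Over all genes tested, 11% were called lower and 11.5% higher by the same rule. By log2 change, those called ran from Mup21 (-4.92) through Mup6 (-4.47), Mup3 (-3.74) and Mup5 (-3.03) to Mup4 (-2.82). Their SEs were 0.86 to 1.30. By the ratio of group means, Mup21 fell 23.6-fold and Mup6 12.2-fold. Mup3, at 6.27-fold, was then close to Mup5 (5.86-fold) and Mup4 (5.13-fold). The order by log2 change was the same in Y-positive libraries alone. In Xist-high libraries alone Mup6 (-4.23) and Mup3 (-3.57) fell more than Mup21 (-3.31). Mup20, darcin, was not called. The median change of the 6 genes was -3.38 on the log2 scale, against 0.05 over all genes tested. All changes are knockout minus control on the log2(value + 1) scale, which understates the change of low genes.

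Mup3 was, with Mup20, 1 of the 2 abundant genes of the 6. Its values in controls ran from 30756 through a median of 116373 to 146962, and in knockouts from 380 through 15168 to 43707. The 4 Y-positive controls, at 104870 to 146962, stood above every other library, and 7 of the 8 knockouts were below the lowest control. The mean was 96874 ± 52717 (SD, n = 6) in controls and 15459 ± 15038 (SD, n = 8) in knockouts, 6.27-fold lower. The log2 change was -3.74 (SE 1.03), with a limma adjusted p of 0.0169.

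Mup21 was a gene of middle abundance and had the largest fall of the 6. Its control values ran from 45.6 through a median of 1394 to 3026, and its knockout values from 0 through 18.3 to 205. Both Xist-high controls, at 59.2 and 45.6, lay within the range of the knockouts, so the groups overlapped, and 5 of 8 knockouts were below the lowest control. Knockout 6 was listed at 0. The mean fell 23.6-fold, from 1453 ± 1317 (SD, n = 6) to 61.7 ± 84.7 (SD, n = 8). The log2 change was -4.92 (SE 1.30), with a limma adjusted p of 0.0130. It was -5.58 without control 5, -5.65 without control 6 and -4.31 without knockout 6, and was called in each of these fits.

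Mup6 lies beside Mup4 at the other end of the block. Its control values ran from 94.3 through 426 to 1143, and its knockout values from 0, in knockout 7, through 12.8 to 115. Only knockout 4 exceeded the lowest control. Its mean was 486 ± 395 (SD, n = 6) in controls and 39.7 ± 46.9 (SD, n = 8) in knockouts, 12.2-fold lower. The log2 change of -4.47 (SE 0.997) had the lowest limma adjusted p of the 6 genes, 0.00483.

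Mup5, known from salivary glands, was low in these livers. It ran from 24.98 through 145 to 341 in controls and from 1.56 through 6.66 to 67.9 in knockouts. Knockouts 1, 2 and 4 were above the lowest control and the other 5 were below it. The log2 change was -3.03 (SE 0.86), with a limma adjusted p of 0.0189.

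Mup4, known from nasal tissue, was the lowest of the 6 genes. It ran from 11.9 through 124 to 224 in controls and from 0, in knockout 7, through 7.41 to 60.9 in knockouts. The Xist-high controls were below knockouts 1, 2 and 4, and 5 of 8 knockouts were below the lowest control. The log2 change was -2.82 (SE 0.96), with a limma adjusted p of 0.0450, just inside the threshold. In the authors' deposited table its q value was 0.0607, and it was the only 1 of the 5 genes that did not pass there, where 8.26% of 27865 genes passed as lower.

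Mup20, which encodes darcin, overlapped between the groups over most of its range. Control values ran from 1728 through a median of 81845 to 153177, and knockout values from 620 through 10564 to 74988. Knockouts 1, 2 and 4, at 68445 to 74988, were above control 1, at 49963, and far above controls 5 and 6, at 2161 and 1728. Only knockouts 6 and 7 were below the lowest control. The log2 change was -1.34 (SE 1.34), with a 95% interval of -4.19 to 1.504 and a limma adjusted p of 0.513. That interval includes no change, and it also includes falls as large as those of Mup3 and Mup5. The change was -2.08 without control 5, -2.14 without control 6 and -0.76 without knockout 7, and was called in none of these fits. In the authors' deposited table the q value of Mup20 was 0.632.

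**Figure D1:**
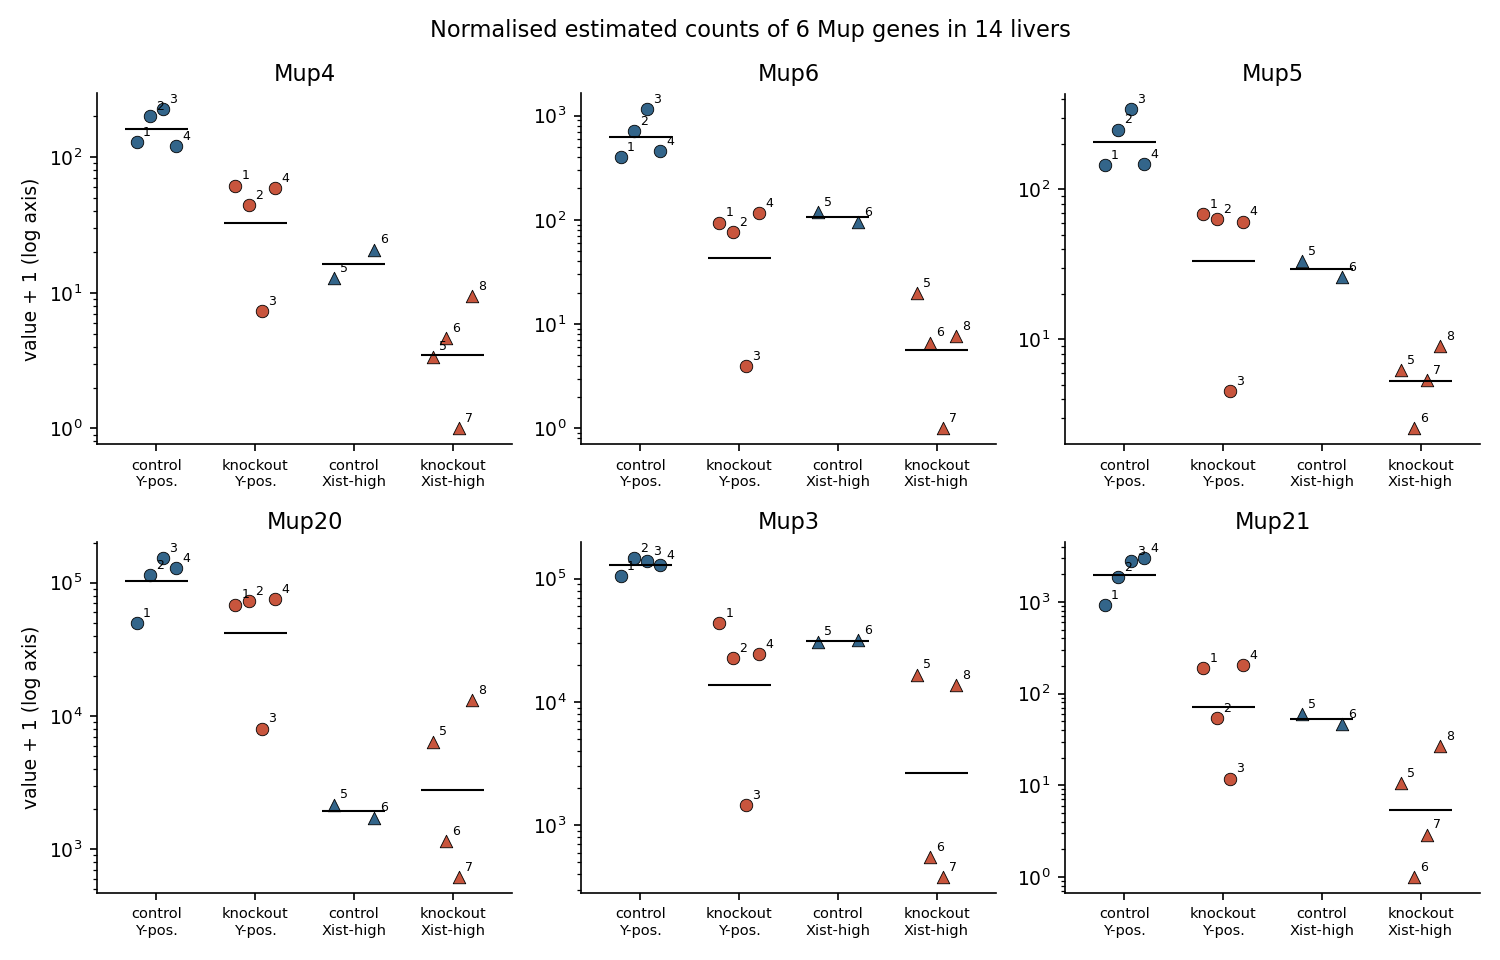
Value plus 1 of each gene in every library on a log axis, with replicate numbers beside the points, blue for controls, red for knockouts, circles for Y-positive and triangles for Xist-high libraries, and a line at the mean of the log values. In 5 genes the knockouts lie below the controls of their own class, while for Mup20 knockouts 5 and 8 lie above both Xist-high controls.

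Per kilobase of mean transcript length, the order of the levels was the same in Y-positive and Xist-high controls, except that Mup21 and Mup6 changed places. Mup3 had 102404 per kb (SD 55726, n = 6) and Mup20 80752 (SD 71177), 2 levels that do not differ beyond their spread over both classes. Within the classes they did not differ beyond their spread in Y-positive controls (137052, SD 19323, against 120080, SD 47506, n = 4) but stood apart in the 2 Xist-high controls, at 33107 (SD 842) for Mup3 and 2096 (SD 330) for Mup20. Over both classes, Mup21 (2147, SD 1945) and Mup6 (692, SD 563) came next, also within their spread, and Mup5 (169, SD 133) and Mup4 (127, SD 95.8) were lowest, again within theirs. That spread is between libraries. Within libraries, Mup5 was above Mup4 in every control. Mup21 was above Mup6 in every Y-positive control and below it in both Xist-high controls. In knockouts Mup20 had 33110 per kb (SD 37266, n = 8) and Mup3 16341 (SD 15896), the reverse of their order in controls, with overlapping spread. In Y-positive knockouts the means were 60489 (SD 34675, n = 4) for Mup20 and 24419 (SD 18260) for Mup3, and Mup20 was above Mup3 in each library. By the means of Xist-high knockouts Mup3 (8263, SD 9064, n = 4) was above Mup20 (5730, SD 6251), again with overlapping spread. Within libraries, Mup20 was above Mup3 in knockouts 6 (1243 against 583 per kb) and 7 (668 against 402). It was below Mup3 in knockouts 5 (6907 against 17606) and 8 (14102.5 against 14461). Over all 8 knockouts Mup21 had 91.1, Mup6 56.5, Mup5 28.8 and Mup4 24.8 per kb, means that do not differ beyond their spread between libraries. Library by library, Mup21 was above Mup4 in every knockout except 6 (0 against 3.92 per kb). Likewise Mup6 was above Mup5 in every knockout except 7 (0 against 4.71). The order of Mup21 and Mup6 and that of Mup5 and Mup4 varied between knockouts.

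Among controls, the levels of these genes differed between the 2 classes. The 4 Y-positive controls had 57.3 times the mean Mup20 value of the 2 Xist-high controls, 41.1 times for Mup21, 10.6 times for Mup4, 7.70 times for Mup5, 6.42 times for Mup6 and 4.14 times for Mup3. For each of the 6 genes every Y-positive control was above both Xist-high controls. The share of all genes that separate in this way was not computed, so this count is a description only. In the fit with genotype, class and their product, Mup20 alone of the 6 was called, at -5.73 (SE 1.09) for Xist-high minus Y-positive controls with a limma adjusted p of 0.0329; 0.195% of all genes were called lower in Xist-high controls. Mup21 was at -5.21 (adjusted p = 0.101), Mup4 at -3.31 (0.165), Mup5 at -2.82 (0.294), Mup6 at -2.55 (0.585) and Mup3 at -2.04 (0.786), all by limma. With 2 Xist-high controls, the call of Mup20 was lost when any of controls 2 to 6 was left out, and it stood without control 1. Without knockout 3 the fit called 4 of the 6 genes and without knockout 6 it called 2, although no knockout enters the difference itself, since all libraries share the estimate of the spread. The share of all genes called in these fits is not given here, so the counts only describe how the calls moved.

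Within the Y-positive libraries, where 4 controls met 4 knockouts, the same 5 genes were all lower in every knockout than in the lowest control. Over all genes tested, 11.8% were so in these libraries, 12.8% in the Xist-high libraries and 4.02% over all 14 libraries, where none of the 6 genes met that rule. In the Xist-high libraries, too, the 4 knockouts were below both controls for the 5 genes. Mup20 met the rule in neither class. In Y-positive libraries alone, limma called 4 of the 6 genes lower, against 8.3% of all genes. Mup21 had a change of -4.79 (adjusted p = 0.00696), Mup6 -3.86 (0.0247), Mup4 -2.31 (0.0327) and Mup3 -3.23 (0.0349), while Mup5, at -2.64, missed the threshold with an adjusted p of 0.0505. Mup20 was at -1.30, with a 95% interval of -2.86 to 0.25.

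In Xist-high libraries alone none of the 6 genes was called by limma, although 4 of them (Mup4, Mup5, Mup6 and Mup21) had an unadjusted p under 0.05, and 0.2% of all genes were called lower. The changes there were -4.23 for Mup6, -3.57 for Mup3, -3.31 for Mup21, -2.48 for Mup5 and -2.23 for Mup4, with limma adjusted p of 0.105 to 0.296. Mup20 was above 0 in that class, at 0.53, with a 95% interval of -2.04 to 3.09. Its Xist-high knockouts had 6410, 1153, 620 and 13087, against 2161 and 1728 in the 2 controls. The difference of the knockout change between the classes was tested directly and was not called for any of the 6 genes, and none had an unadjusted p under 0.05 there. For Mup20 it was 1.83 (95% interval -1.20 to 4.87, limma adjusted p = 0.845), and for the other 5 genes it ran from -0.37 to 1.48; 0.0552% of all genes were called in either direction. Without the class in the model the spread between classes counts as error: with the class as a covariate the same 5 genes were called, with limma adjusted p of 0.00120 to 0.0146, and Mup20 was at -0.57 (95% interval -2.08 to 0.93, adjusted p = 0.602).

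**Figure D2:**
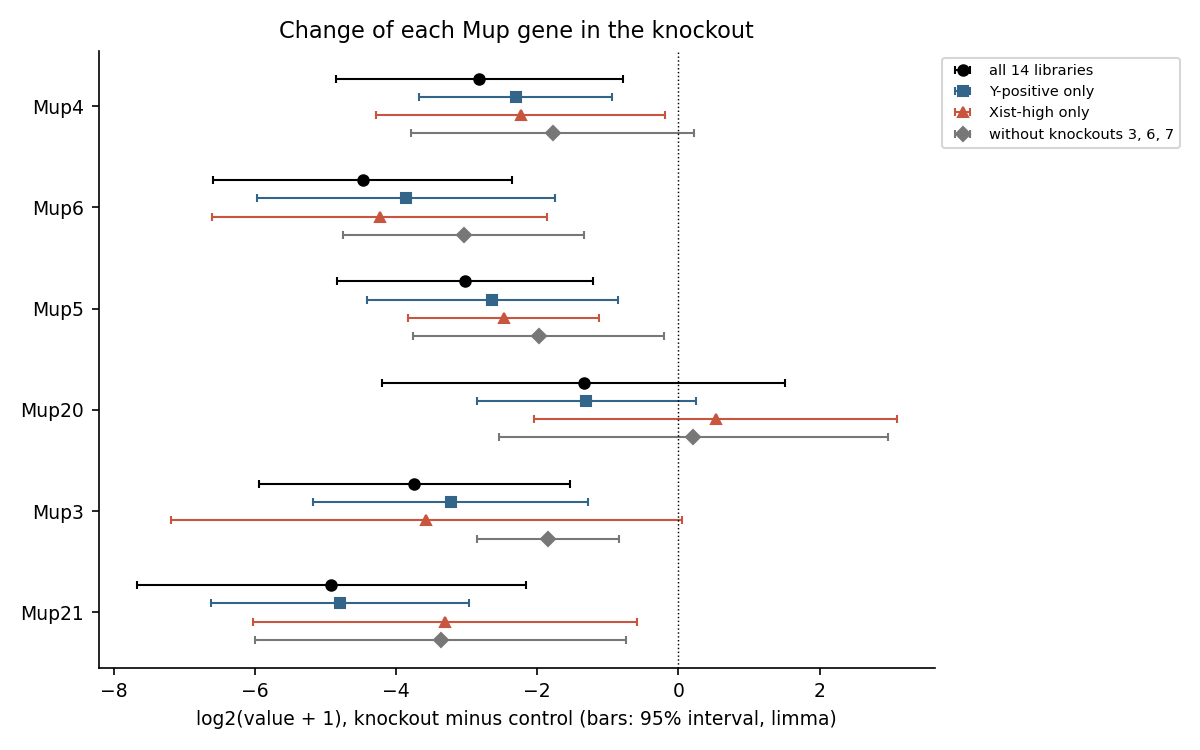
Log2 change of each gene with its 95% interval from limma, in all 14 libraries (black), in Y-positive libraries (blue), in Xist-high libraries (red) and without knockouts 3, 6 and 7 (grey). The points of Mup3, Mup4, Mup5, Mup6 and Mup21 lie below 0 in each of the 4 sets, and those of Mup20 lie on both sides of 0.

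Knockouts 3, 6 and 7 held low values of every gene, although for Mup4, Mup20 and Mup21 knockout 5 was also among the 3 lowest. Mup3 was 1456, 552 and 380 in them and 13681 to 43707 in the other 5 knockouts. Mup20 was 8042, 1153 and 620, against 6410 to 74988. Without these 3 libraries 2 of the 6 genes were called lower by limma, Mup6 at -3.04 (adjusted p = 0.0180) and Mup3 at -1.85 (0.0155), and 9.24% of all genes were. Mup21 was then at -3.37 (adjusted p = 0.0723), Mup5 at -1.98 (0.116), Mup4 at -1.78 (0.206) and Mup20 at 0.21 (0.933), so the change of Mup20 turned its sign. Mup20 was also above 0, at 0.33, with the estimated reads of each library as a covariate. Scaling each library to the same sum outside ribosomal RNA moved the median of all genes by 0.33 and the split of calls from 2697 higher and 2583 lower to 7833 and 866; the changes under that scaling were -4.62 for Mup21, -4.18 for Mup6, -3.40 for Mup3, -2.72 for Mup5, -2.53 for Mup4 and -1.01 for Mup20, and the same 5 were called.

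Because Mup3 and Mup20 were the 2 abundant genes of the 6 and lie next to each other, their ratio within each library was compared, a choice made after the values were seen. The ratio of the Mup20 value to the Mup3 value was 0.476, 0.774, 1.10 and 1.01 in the Y-positive controls and 0.0703 and 0.0542 in the Xist-high controls. In knockouts 1 to 4 it was 1.57, 3.21, 5.52 and 3.06, and in knockouts 5 to 8 it was 0.385, 2.09, 1.63 and 0.957. Within each class every knockout was above every control, while over all libraries the groups overlapped. The mean log2 ratio was 2.40 higher in knockouts (exact permutation test over 3003 arrangements, two-sided, p = 0.0113), and with arrangements kept within the classes the exact p was 0.00571 over 1050. Without knockouts 3, 6 and 7 the difference was 2.05 and the exact permutation p was 0.0866. A ratio within a library does not depend on its scaling. Since the pair was chosen with both genes' values known, these p-values describe a difference already seen and are no independent evidence of it.

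The pseudogene that shares words with Mup20 followed it. Mup-ps19 was listed at 0.364 to 0.670 of the Mup20 value in controls and at 0.320 to 0.919 in knockouts, and its own log2 change was -1.28 (SE 1.17), with a limma adjusted p of 0.472. With the values of Mup20 and Mup-ps19 summed, the change was -1.31, against -1.34 for Mup20 alone. The log2 ratio of that sum to Mup3 was 2.43 higher in knockouts (exact permutation p = 0.00699).

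The make-up of the Mup RNA differed between the groups. The summed values of the 21 Mup genes lay between 106701 and 1852740 in controls, and between 1140 and 177170 in knockouts. The 6 genes took 16.0% to 37.3% of that sum in controls and 56.4% to 91.9% in knockouts, without overlap. Mup20 alone took 1.21% to 18.5% in controls and 20.2% to 77.6% in knockouts, and Mup3 took 7.497% to 29.9% of it in controls and 13.8% to 52.4% in knockouts. Mup4, Mup5, Mup6 and Mup21 each stayed under 0.5% of the sum in every library. The shares rest on how reads were divided among near-identical copies of the central block, which is uncertain for each copy and less so for their sum.

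**Figure D3:**
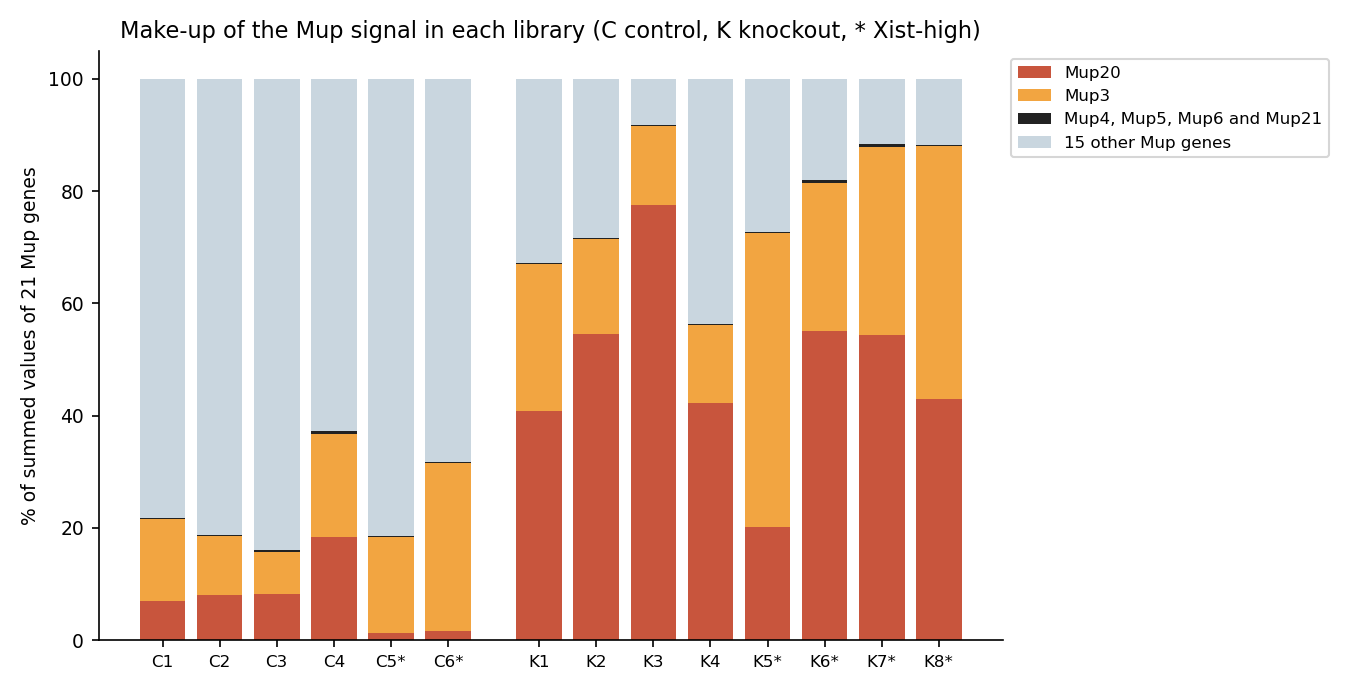
Percentage of the summed values of 21 Mup genes taken in each library by Mup20 (red), Mup3 (yellow), the other 4 divergent genes together (black) and the 15 genes of the central block (grey). The coloured parts together take 16.0% to 37.3% in the 6 controls and 56.4% to 91.9% in the 8 knockouts.

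Of the 15 Mup genes of the central block in the table, limma called 14 lower and none higher, with a median change of -6.12, against -3.38 for the 6 divergent genes. Mup15 (-8.57), Mup17 (-7.81) and Mup12 (-7.15) had the largest falls by the naming rule, and Mup8, at -3.53 with an adjusted p of 0.0647, was not called. In this fit over all 14 libraries every divergent gene had a smaller fall than each of the 14 called genes of the block. That order did not hold throughout. In Y-positive libraries alone Mup21 (-4.79) fell more than Mup16 (-3.64), Mup10 (-3.80), Mup19 (-4.50) and Mup13 (-4.61). It fell less than the rest of the 14 there. By the ratio of group means, the fall was 23.6-fold for Mup21, 8.65-fold for Mup16 and 93.1-fold for Mup17. The difference between the 2 sets was not tested, since the division of reads among the copies of the block ties their values together.

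**Figure D4:**
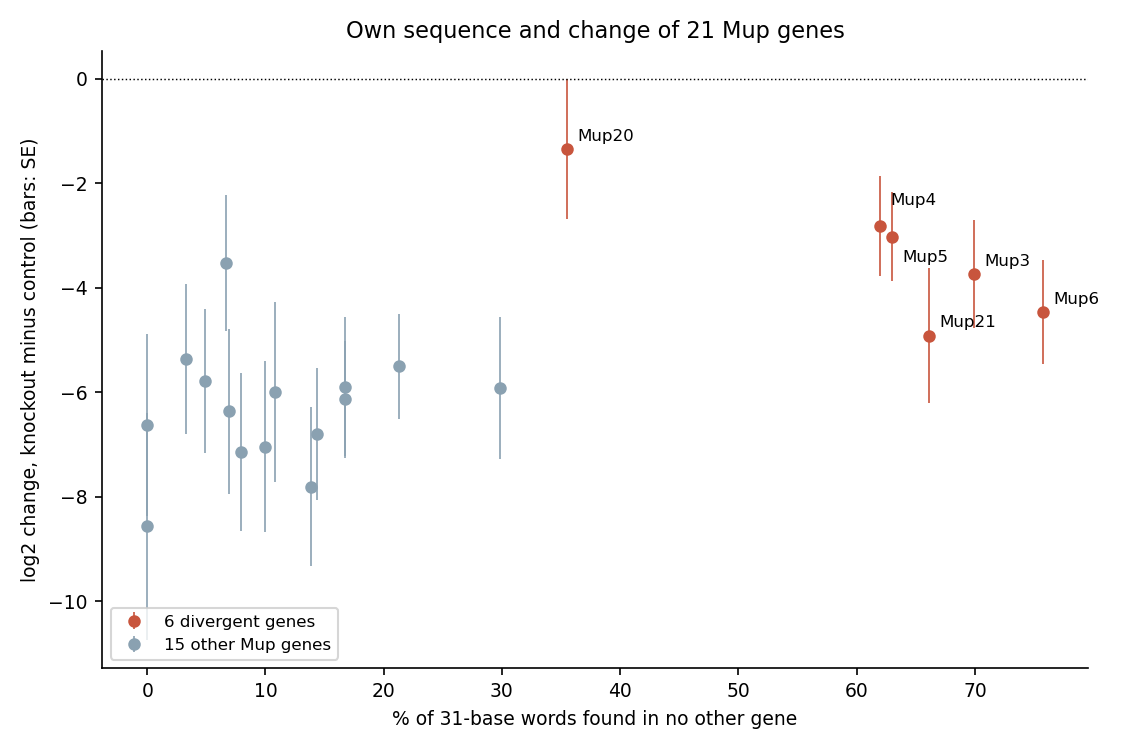
Log2 change (limma, with SE) of 21 Mup genes against the percentage of their 31-base words found in no other annotated gene, with the 6 divergent genes in red and the 15 others in grey. The divergent genes lie at 35.5% to 75.7% of own words with changes of -4.92 to -1.34, and the others at 0% to 29.8% with changes of -8.57 to -3.53.

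The 6 genes varied together from liver to liver. Over the 14 libraries the Pearson correlation of log2 values between pairs of them was 0.746 to 0.959, lowest for Mup6 with Mup20 and highest for Mup5 with Mup21. The 14 points share genotype, class and depth, so these are descriptions. Among 10533 protein-coding genes outside the family with a mean above the median, the 3 most similar to Mup3 were Mug1 (r = 0.990), Serpina1c (0.989) and Ces3b (0.989), which encode a murinoglobulin, an alpha-1-antitrypsin and a carboxylesterase. Those most similar to Mup21 were Serpina12 (0.970), which encodes the serpin vaspin, Trip4 (0.964) and Serpina1e (0.959). For Mup6 they were Ttc39c (0.967), Serpina1c (0.965) and Mcm10 (0.963), and for Mup5 Ttc39c (0.970), the organic anion transporter gene Slco1a1 (0.952) and Ndrg3 (0.951).

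The genes most similar to Mup20 were Alas2 (r = 0.964), which encodes the erythroid form of the first enzyme of heme synthesis, Elovl3 (0.960), a fatty acid elongase, and Hsd3b5 (0.956), a steroid dehydrogenase. Those most similar to Mup4 were Gm7298 (0.953), Elovl3 (0.950) and Nox4 (0.939). Elovl3 and Hsd3b5 are on the list of male-biased liver genes. Elovl3 had a mean of 2569 in Y-positive controls and 56.8 in Xist-high controls, and Hsd3b5 had 5908 and 26.8. Like Mup20, neither was called between genotypes, at -2.35 for Elovl3 (limma adjusted p = 0.220) and -3.26 for Hsd3b5 (0.241).

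Of 15 genes of growth hormone and STAT5 signalling tested, 2 were lower and none higher, with a median of -0.13; 2 of 15 is near the 11% called lower over all genes. They were Igf1, the growth factor that growth hormone induces (20554 ± 1682 in controls and 9461 ± 3109 in knockouts, SD, n = 6 and 8, log2 change -1.20, limma adjusted p = 0.00106), and Ghr, the growth hormone receptor (-0.69, adjusted p = 0.0221). Stat5b was at -0.15 and the STAT5 target Socs2 at -0.13, with limma adjusted p of 0.368 and 0.828. Of 20 genes listed as regulators of Mup or of liver transcription, 7 were lower and none higher, with a median of -0.21. Among them were Onecut1 (-1.35, limma adjusted p = 0.0140) and Foxa3 (-0.96, 0.00155), both hepatocyte transcription factors. Zhx2, a repressor of Mup genes, was at -0.18 (0.457), and Bcl6, a transcriptional repressor, at 0.27 (0.708). Both lists depended on the scaling: with equal sums outside ribosomal RNA, 1 gene of growth hormone signalling was lower and 1 higher (median 0.21), and 4 regulators were lower and 3 higher (median 0.12), where 3.68% of all genes were lower and 33.3% higher.

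Of 20 male-biased liver genes tested, 8 were lower and none higher, with a median of -1.41, against 11% lower over all genes. In Y-positive libraries alone 12 were lower, against 8.3% of all genes. In Xist-high libraries 2 were lower and 1 higher, with a median of -0.49, against 0.2% and 0.73% of all genes. Without knockouts 3, 6 and 7 the number lower was 6, against 9.24% of all genes. With equal sums outside ribosomal RNA it was 6, against 3.68%. Serpina1e, of the alpha-1-antitrypsin family, had 276175 ± 213025 (SD, n = 6) in controls and 4739 ± 7308 (SD, n = 8) in knockouts, a change of -6.15 with a limma adjusted p of 0.00161. Slco1a1 (-3.48, adjusted p = 0.00269) and Cyp7b1, an oxysterol hydroxylase (-3.44, 0.00188), followed. Of 21 female-biased genes tested, 1 was higher and none lower: Sult1e1, the estrogen sulfotransferase, had 7.55 ± 5.81 (SD, n = 6) in controls and 91.4 ± 99.8 (SD, n = 8) in knockouts, a change of 3.09 (limma adjusted p = 0.00173). That count depended on the class, with 6 of 21 higher in Y-positive libraries and none higher and 4 lower in Xist-high libraries. Over all genes 7.39% were higher in Y-positive libraries, and 0.73% were higher and 0.2% lower in Xist-high libraries. Of 10 other lipocalin genes tested, 4 were lower and 1 higher, against 11% and 11.5% of all genes. With quantile normalization 2 were lower, against 10.2% of all genes, and 1 was higher. With equal sums outside ribosomal RNA 3 were lower and 2 higher, against 3.68% and 33.3% of all genes. In Xist-high libraries alone none was called. Apom, a carrier of sphingosine-1-phosphate in plasma, was at -1.23 (adjusted p = 3.20e-05) and Rbp4, the retinol carrier, at -1.03 (0.000448), while Lcn2, an iron-siderophore carrier of the acute phase, was at 1.79 (0.00938), all by limma.

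Of 19 tested neighbours of the Mup block on chromosome 4, 2 were lower and 1 higher, with a median of -0.08, against 11% lower and 11.5% higher over all genes, so the count of lower neighbours was near the background. Rgs3 (-0.98, limma adjusted p = 0.000125) and Alad, an enzyme of heme synthesis (-0.43, 0.0417), were lower, and Zfp37 (0.52, 0.0490) was higher. With equal sums outside ribosomal RNA 1 neighbour was lower and 8 were higher, with a median of 0.25, against 3.68% lower and 33.3% higher over all genes.

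**Figure D5:**
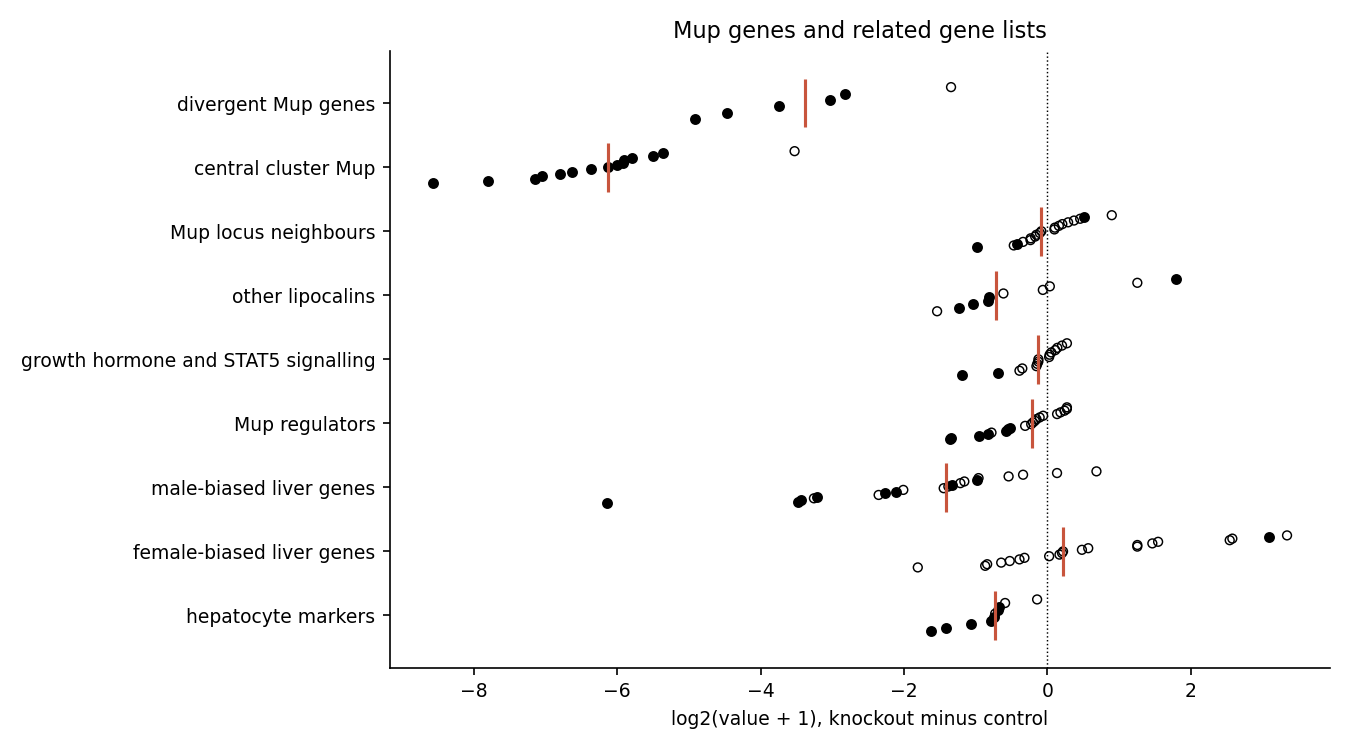
Log2 change of each tested gene of 9 lists, filled where limma's adjusted p was at most 0.05 and open otherwise, with a red line at each list's median. The 6 divergent Mup genes have a median of -3.38, between that of the central block (-6.12) and that of the male-biased genes (-1.41), and the medians of the neighbours (-0.08) and of growth hormone and STAT5 signalling (-0.13) lie near 0 and turn to 0.25 and 0.21 with equal sums outside ribosomal RNA.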

How the data were processed

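Liver RNA of 14 libraries was analysed from 1 table of 75859 lines, reduced to 54446 genes by dropping repeated lines with identical values. The submitters' processing notes name kallisto, sleuth and mm10; versions, strand setting and transcript set are not given in the sources used here. The deposited values are a signal, estimated counts divided by a size factor: 27.8% to 29.7% of low values were whole multiples (within 0.02) of 1 read's worth, so read counts could not be recovered and no count test was run. The authors deposited p-values and q-values for 27865 genes, and a natural log difference of value + 0.5. Here limma 3.58.1 (R 4.3.3, trended variance) was fitted on log2(value + 1) for the 23554 genes at 10 or more in 6 or more libraries, with Benjamini-Hochberg adjustment over all of them; it was tested on simulated data. Class came from Xist against 4 Y-linked genes. The rule for the members used position and sequence, but members and lists were chosen with earlier results of these data known. Named were all 6 genes, Mettl3 in each library (its range is given), the 3 called genes of each list with the largest change (or the smallest p where none was called; among sex-linked genes, Eif2s3y, with an adjusted p of 0.427), and the 3 genes most correlated with each Mup gene. Other genes were named after their values were seen. For the list of regulators, 1 gene that this rule names is not reported here. Sequences came from GENCODE M21 transcripts and RefSeq promoters, aligned with MAFFT 7.526 and Biopython 1.88. Depth limits the lowest genes, Mup4 and Mup5. It also limits the low knockout values of Mup6 (0 in knockout 7, 2.96 in knockout 3) and Mup21 (0 in knockout 6, 1.88 in knockout 7). With pseudocounts of 0.1 and 10, Mup6 was at -4.99 and -3.49 and Mup21 at -5.43 and -4.02. No interval for counting error was computed.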

Additional observations from a re-analysis of the deposited data

How the results depend on the processing

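Of the 6 Mup genes, 5 were lower in the knockout. The count was 4 or 5 under the other settings except an adjusted p of 0.01, which left 1, Xist-high libraries alone, which left 0, the omission of knockouts 3, 6 and 7, which left 2, and replicates 1 to 6 without a block, which left 3; the last setting was chosen after seeing the data. No setting called any of the 6 higher. Leaving out 1 library at a time gave 4 to 5. Mup4 accounted for the lost call in 9 of these 14 fits (adjusted p up to 0.1005), and Mup3, Mup5, Mup6 and Mup21 kept theirs in all 14. Mup4 also missed the threshold without a filter (adjusted p = 0.102), with pseudocounts of 0.1 (0.0685) and 0.5 (0.0501) and with estimated reads as a covariate (0.0743). Mup20 was above 0 in Xist-high libraries (0.53), with estimated reads as a covariate (0.33) and without knockouts 3, 6 and 7 (0.21), and below 0 in the other 28 settings; in the same order Mup-ps19 was at 0.57, 0.12 and 0.14. The Y-linked gene Eif2s3y went from -1.24 to 0.24 with estimated reads as a covariate. The causes were not tested. Members called for the class difference in controls ranged from 0 to 4 when 1 library was left out, against 1. The share of all genes called in those fits is not given here. The interaction called 0 under each setting run.

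Same-numbered controls and knockouts deviated together with correlations of 0.0707 to 0.228, with replicate 3 at the lowest, so the numbers were not taken to pair the samples; 2 of 6 controls correlated best with their own number. With the replicate block, 5 members were lower and 0 higher, and Mup20 was at -0.71 (adjusted p = 0.452). Groups of 2 to 4 libraries per class limit the precision within classes, and depth is lower in the Xist-high class.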
